A study of Drosophila melanogaster with 20 samples.

Results

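The genes described here encode proteins of the contractile filaments of differentiated muscle. A list of 10 such genes was searched for probe sets annotated with that gene's symbol and no other, and 7 of the 10 were measured, each by 1 probe set, among 13402 genes in all. They were the myosin light chain genes Mlc1 and Mlc2, the paramyosin gene Prm, bent (bt), the actin gene Act87E, upheld (up) and the tropomyosin gene Tm2. The listed genes Mhc, Act57B and wupA had no probe set of their own symbol and are not analysed here. No filter on dim genes was applied, so all 7 entered every test.

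In the sarcomere, the repeating unit of striated muscle, thick filaments of myosin built around paramyosin slide along thin filaments of actin, tropomyosin and troponin, and very long titin-like proteins tie the thick filaments to the Z-discs. The body wall of a Drosophila larva is lined with such muscle. The wing imaginal disc, the larval epithelial sac that forms the adult wing and dorsal thorax, carries muscle precursors called myoblasts, which divide in the larva and build filaments only at metamorphosis. The filament genes were listed to look for larval muscle carried over with the dissected discs.

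Total RNA from about 20 pairs of wing discs per sample was hybridised to Affymetrix arrays, and the deposited values are log2 expression levels from RMA, a method that corrects background, equalises the distributions of the arrays and summarises the probes of each set. All 5 groups carried EGFR, the epidermal growth factor receptor. E_Ctrl (EGFR alone) and EP_Ctrl (EGFR together with psqRNAi, RNA interference against the gene pipsqueak) were discs taken at 12 hr, before tumors formed, with 4 arrays each. E_EHT (EGFR, 3 arrays used) and EP_EHT (EGFR with psqRNAi, 4 arrays) were early hyperplastic tumors of day 4, and EP_LNT (EGFR with psqRNAi, 4 arrays) were late neoplastic tumors of day 11. E_EHT replicate 1 was excluded here because the series' design text reports technical problems with it. No source used here names the driver of the transgenes. Discs without EGFR are not analysed here, so age and tumor growth cannot be told apart in any comparison over time. The labels call the arrays of a group biological replicates. In bulk RNA, fewer muscle cells and less filament RNA per muscle cell cannot be told apart.

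The 21 measured wing disc markers averaged between 9.38 and 10.15 per array, above the array medians of 7.29 to 7.39 over all genes. The transcript of psq stood at 10.70 ± 0.18 (SD, n = 4) in EP_EHT and 11.15 ± 0.05 (n = 3) in E_EHT, a fall of 0.45 on the log2 scale (limma, adjusted p = 0.0163). At 12 hr it stood at 10.78 ± 0.14 in EP_Ctrl and 10.87 ± 0.05 in E_Ctrl, and the difference of -0.09 did not pass (adjusted p = 0.675). Egfr passed the test in none of the 7 comparisons. EP_LNT replicate 4 stood apart in the male-specific RNAs of dosage compensation: roX1 was at 7.87 there, against 12.14 to 12.39 on the other EP_LNT arrays, and roX2 at 4.86, against 8.74 to 9.12. Without that array Mlc1, up and Tm2 still fell in EP_LNT against EP_Ctrl (-2.93, -1.99 and -1.62, adjusted p = 0.00399, 0.0178 and 0.0182), and Mlc1 did not pass against EP_EHT (-2.14, adjusted p = 0.052). In that fit 3363 of 13402 genes passed in either direction in EP_LNT against EP_Ctrl, and 1510 against EP_EHT.

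Mlc1 encodes the essential light chain of muscle myosin, and it was the filament gene with the largest fall at day 11. At 12 hr the 4 E_Ctrl arrays stood at 10.44, 10.88, 10.51 and 11.34 and the 4 EP_Ctrl arrays at 10.04, 9.87, 11.14 and 12.70. At day 4 the E_EHT arrays stood at 11.27, 10.14 and 11.13 and the EP_EHT arrays at 10.55, 10.85, 10.79 and 8.40, and at day 11 the EP_LNT arrays stood at 8.94, 7.98, 7.10 and 8.25. All 4 day 11 arrays lay below every 12 hr array of either genotype and below 3 of the 4 EP_EHT arrays, with EP_EHT replicate 4 inside the day 11 range. The group means fell in the order EP_Ctrl (10.94 ± 1.30, SD), E_EHT (10.84 ± 0.62), E_Ctrl (10.80 ± 0.41), EP_EHT (10.15 ± 1.17) and EP_LNT (8.07 ± 0.76), and neighbours among the first 4 differed by less than their spread. Mlc1 was 7.30-fold lower in EP_LNT than in EP_Ctrl (log2 fold change -2.87 ± 0.61, SE, limma, adjusted p = 0.00231) and 4.22-fold lower than in EP_EHT (-2.08 ± 0.61, adjusted p = 0.0484).

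Mlc2 encodes the regulatory light chain that sits on the same myosin heads, and its level did not follow that of Mlc1 at day 11. It read 11.21, 11.34, 11.18 and 11.84 in E_Ctrl and 10.72, 10.65, 11.59 and 13.32 in EP_Ctrl. At day 4 it read 12.01, 10.95 and 11.74 in E_EHT and 11.44, 11.96, 11.57 and 10.83 in EP_EHT, and at day 11 it read 11.95, 11.90, 11.80 and 11.47 in EP_LNT. The day 11 arrays lay within the range of every other group taken alone except E_Ctrl, whose highest array they overlapped. The group means lay between 11.40 ± 0.31 (SD, E_Ctrl) and 11.78 ± 0.22 (EP_LNT), a narrower span than that of the arrays within any group. Its log2 fold change at day 11 was 0.21 against EP_Ctrl, with a 95% interval of -0.71 to 1.14, and 0.33 against EP_EHT, with an interval of -0.60 to 1.25 (limma, adjusted p = 0.802 and 0.763).

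Prm encodes paramyosin, which forms the core of invertebrate thick filaments. The E_Ctrl arrays stood at 7.58, 7.90, 7.68 and 8.19, the EP_Ctrl arrays at 7.52, 7.65, 8.14 and 10.15. The E_EHT arrays stood at 7.90, 7.50 and 7.89, the EP_EHT arrays at 7.66, 7.90, 8.06 and 7.38, and the EP_LNT arrays at 7.46, 7.20, 7.35 and 7.40. The day 11 arrays were all lower than the 8 arrays of 12 hr, and EP_EHT replicate 4 lay among them. The difference of -1.01 ± 0.39 (SE) between EP_LNT and EP_Ctrl did not pass the test over all genes (limma, adjusted p = 0.0766).

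The product of bt is projectin, a titin-family protein with a kinase domain that runs along the thick filament. Its E_Ctrl arrays read 7.38, 7.96, 7.25 and 7.69 and its EP_Ctrl arrays 7.02, 7.26, 7.54 and 9.73. Its E_EHT arrays read 8.24, 7.68 and 7.90, its EP_EHT arrays 7.25, 7.55, 7.93 and 6.94, and its EP_LNT arrays 6.94, 6.78, 6.64 and 6.97. As for Prm, the day 11 arrays lay below all 12 hr arrays and overlapped the day 4 arrays through EP_EHT replicate 4 alone. The log2 fold change against EP_Ctrl was -1.05 ± 0.42 (SE, limma, adjusted p = 0.0823).

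Of the thin filament genes, up encodes troponin T, which links the troponin complex to tropomyosin. It stood at 8.52, 8.73, 8.42 and 9.08 in E_Ctrl, and at 7.89, 8.07, 9.17 and 11.13 in EP_Ctrl. It stood at 9.15, 8.23 and 9.22 in E_EHT, at 8.51, 8.97, 8.86 and 7.56 in EP_EHT, and at 7.36, 7.01, 6.85 and 7.35 in EP_LNT. All 4 day 11 arrays lay below all 15 other arrays. In the order of group means, EP_Ctrl (9.06 ± 1.49, SD), E_EHT (8.87 ± 0.55), E_Ctrl (8.69 ± 0.29) and EP_EHT (8.48 ± 0.64) differed by less than their spread, and EP_LNT (7.14 ± 0.25) came last. The gene was 3.78-fold lower in EP_LNT than in EP_Ctrl (-1.92 ± 0.52, SE, limma, adjusted p = 0.0128). Against EP_EHT the difference of -1.33 ± 0.52 did not pass (adjusted p = 0.145).

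Tm2 encodes a tropomyosin, the coiled coil that lies along actin and covers the sites where myosin binds. The E_Ctrl arrays stood at 7.32, 7.47, 7.15 and 7.60 and the EP_Ctrl arrays at 6.90, 7.23, 7.86 and 9.72. The E_EHT arrays stood at 7.91, 6.81 and 7.51, the EP_EHT arrays at 7.27, 7.34, 7.49 and 6.66, and the EP_LNT arrays at 6.18, 6.53, 6.21 and 6.26. As for up, the day 11 arrays lay below all others. The mean of EP_LNT was 6.30 ± 0.16 (SD), against 7.19 ± 0.36 in EP_EHT and 7.93 ± 1.26 in EP_Ctrl. Tm2 was 3.10-fold lower in EP_LNT than in EP_Ctrl (-1.63 ± 0.42, SE, limma, adjusted p = 0.01), and the difference of -0.89 ± 0.42 from EP_EHT did not pass (adjusted p = 0.248).

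Act87E encodes a muscle actin. The actin genes of Drosophila have nearly identical coding sequences, so this probe set may also read other actin transcripts, and its values are uncertain for that reason. It read 6.14, 6.17, 5.72 and 5.97 in E_Ctrl and 5.37, 5.55, 6.05 and 7.41 in EP_Ctrl. It read 6.52, 5.93 and 6.68 in E_EHT, 6.37, 6.21, 6.32 and 5.97 in EP_EHT, and 6.50, 6.59, 6.60 and 6.03 in EP_LNT. The groups overlapped, although 3 of the 4 day 11 arrays lay above all arrays of E_Ctrl and of EP_EHT. Its log2 fold change in EP_LNT was 0.34 against EP_Ctrl, with a 95% interval of -0.34 to 1.01, and 0.21 against EP_EHT, with an interval of -0.46 to 0.89 (limma, adjusted p = 0.522 and 0.791).

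**Figure D1:**
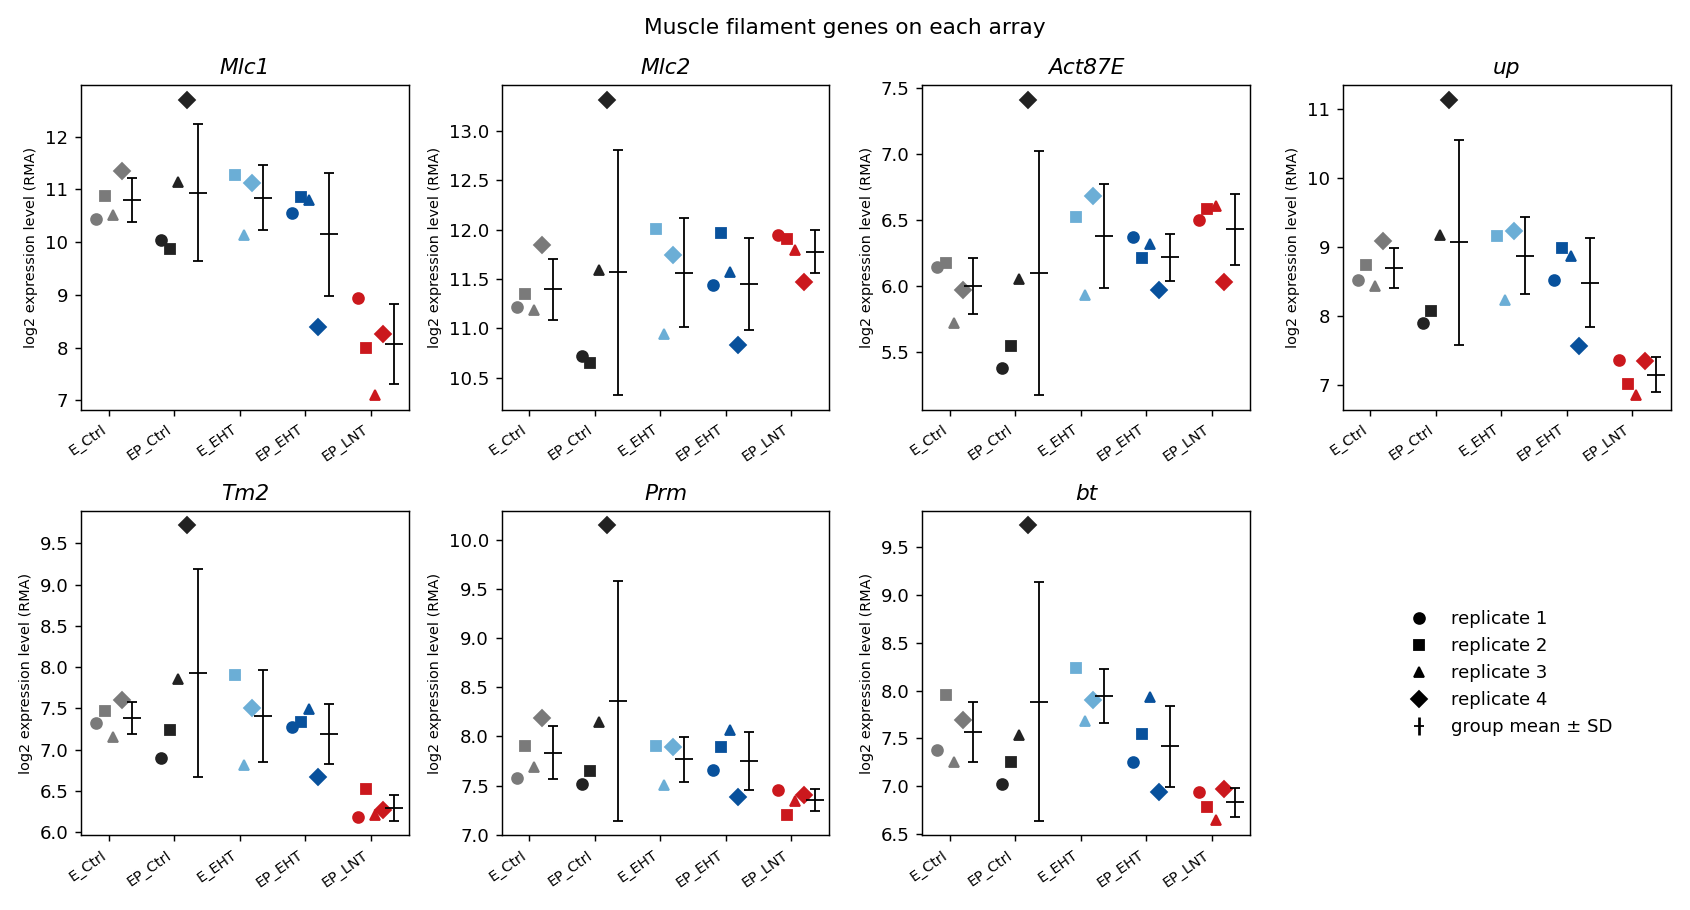
The log2 expression level (RMA) of each of the 7 muscle filament genes on each of the 19 arrays, by group, with the group mean and SD as a horizontal and a vertical bar and the replicate number as the symbol. EP_Ctrl replicate 4 is the highest point of every panel, and the 4 EP_LNT arrays are the lowest for up and Tm2 and lie within or above the other groups for Mlc2 and Act87E.

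From 12 hr to day 11 in discs with EGFR and psqRNAi, 3 of the 7 filament genes fell (Mlc1, up and Tm2), none rose and 4 did not pass. In this comparison 22.1% of all genes passed in either direction. The median log2 fold change of the 7 was -1.05, against 0.01 over all genes. For 5 of the 7 (Mlc1, up, Tm2, Prm and bt) the 4 day 11 arrays lay below all 4 EP_Ctrl arrays, as 11% of all genes did. For none of the 7 did they lie above, against 12.9% of all genes. In a fit on only the groups compared Mlc1 alone passed, where 2471 of 13402 genes passed. With 1 array left out 3 to 5 of the 7 passed, 5 of them without EP_Ctrl replicate 1, where 2454 of 13402 genes passed.

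From day 4 to day 11, Mlc1 alone passed, and it fell, where 6.99% of all genes passed in either direction. The median of the 7 was -0.59, against -0.0038 over all genes. The arrays of both groups did not overlap, with day 11 lower, for up and Tm2, as for 4.11% of all genes, and day 11 was higher without overlap for none of the 7, against 5.08%. Both comparisons use the same 4 EP_LNT arrays, so they are not independent of each other. The Mlc1 call held in 11 of 29 alternative settings, with adjusted p between 0.00134 and 0.157, and leaving out 1 array gave 0 to 3 filament genes called.

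**Figure D2:**
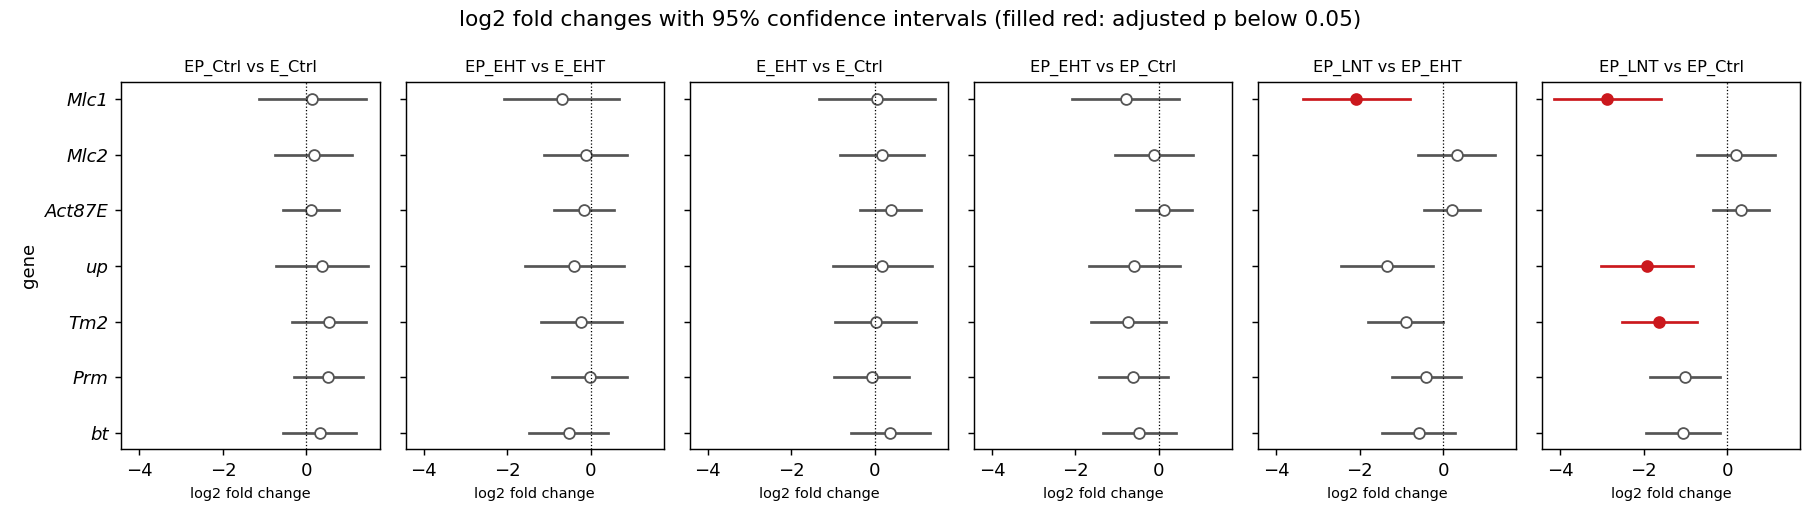
The log2 fold change of each filament gene in the 6 comparisons of group means, with 95% confidence intervals from limma. Filled red points passed the test over all genes: Mlc1 (-2.08) from day 4 to day 11, and Mlc1 (-2.87), up (-1.92) and Tm2 (-1.63) from 12 hr to day 11.

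No filament gene passed in the other comparisons. Between the genotypes at 12 hr, where 2.43% of all genes passed, the 7 log2 fold changes of EP_Ctrl over E_Ctrl ran from 0.10 (Act87E, 95% interval -0.57 to 0.77) to 0.54 (Tm2, -0.36 to 1.44). Between the genotypes at day 4, where 3.17% passed, they ran from -0.70 (Mlc1, -2.08 to 0.69) to -0.02 (Prm, -0.91 to 0.88). From 12 hr to day 4 with EGFR alone, where 6.58% passed, they ran from -0.07 (Prm, -0.97 to 0.83) to 0.38 (Act87E, -0.35 to 1.10). With psqRNAi, where 4.72% passed, they ran from -0.79 (Mlc1, -2.07 to 0.49) to 0.12 (Act87E, -0.55 to 0.79).

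The change from 12 hr to day 4 was also compared between the genotypes. The 7 differences, EGFR with psqRNAi minus EGFR alone, ran from -0.84 (bt, 95% interval -2.14 to 0.45) to -0.26 (Act87E, -1.25 to 0.73), and none passed. By limma 0% of all genes passed here, and 2177 had an unadjusted p below 0.05.

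The filament genes varied together among arrays of the same group, and a single array carried much of that spread. EP_Ctrl replicate 4 was the highest of all 19 arrays for 7 of 7 filament genes. It stood above the mean of the other 3 EP_Ctrl arrays by 1.76 (Act87E) to 2.75 (up), with a median of 2.38, and 1.13% of all genes stood more than 1 above in the same way. The larger excesses on that array included genes of other kinds, among them CG13230 (11.61, against a mean of 6.31 on the other 3), ng1, 1 of the listed salivary gland genes (12.30 against 7.30), and the larval cuticle gene Lcp9 (12.65 against 8.16). They also included the muscle genes Mp20 (12.40 against 9.27), pncr003:2L (11.35 against 8.36) and Mf (11.01 against 8.19). The lists of further sarcomere and Z-disc genes (7.99) and of muscle membrane, calcium and metabolism genes (7.71) averaged highest of all 19 arrays there. Some of their genes were lower there, such as Act79B (5.43 against 5.74). Of the 11 salivary gland genes, ng1, ng2 and ng3 were higher there than the mean of the other 3 arrays. The other 8 were lower than that mean, though each was above its value on EP_Ctrl replicate 1. The list averaged 10.34, within the range of its group. The haemocyte list was at its lowest on that array (7.90), and the fat body list was at the lowest of its group (11.91).

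In the opposite direction, EP_EHT replicate 4 was the lowest of its group for 7 of 7 filament genes, below the mean of the other 3 arrays by between 0.33 (Act87E) and 2.33 (Mlc1), with a median of 0.70. E_EHT replicate 3 was likewise the lowest of its 3 arrays for all 7, by between 0.39 (bt) and 1.06 (Mlc1), with a median of 0.90. Of all 13402 genes, 201 stood more than 1 below the rest of the group on EP_EHT replicate 4, among them Mlc1 and up. For E_EHT replicate 3 that number was 146, and Mlc1 was the only filament gene among them. How many of all genes were the lowest of their group on either array was not counted. Further sarcomere and Z-disc genes went both ways on EP_EHT replicate 4. Mp20 was lower (7.62, against a mean of 9.70 on the other 3) and Msp300 higher (12.19 against 11.33). That list averaged lowest of its group on both arrays (7.20 and 7.36). The muscle membrane, calcium and metabolism list was at the highest of its group on EP_EHT replicate 4 (7.42) and at the lowest on E_EHT replicate 3 (7.33). On these arrays the 11 markers of salivary gland, of which most encode glue proteins, were also at the lowest of their groups: they averaged 7.34 on EP_EHT replicate 4, against 10.60 to 11.10 on the other EP_EHT arrays, and 7.09 on E_EHT replicate 3, against 8.17 and 11.49. In E_Ctrl the arrays were ordered otherwise, since replicate 4 was the highest for 5 filament genes and the lowest for the salivary gland markers (7.72). The wing disc list was at the highest of its group on EP_EHT replicate 4 (10.15) and on E_EHT replicate 3 (10.01). So was the list of disc myoblast and fusion genes (8.86 and 8.59). On EP_Ctrl replicate 4, the array high in the filament genes, the wing disc list was at the highest of its group too (10.10). The myoblast and fusion list was not (8.45). The fat body list was at the lowest of its group on EP_EHT replicate 4 (11.23) but not on E_EHT replicate 3 (12.19). The part of carried-over salivary gland in these values was not tested.

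**Figure D3:**
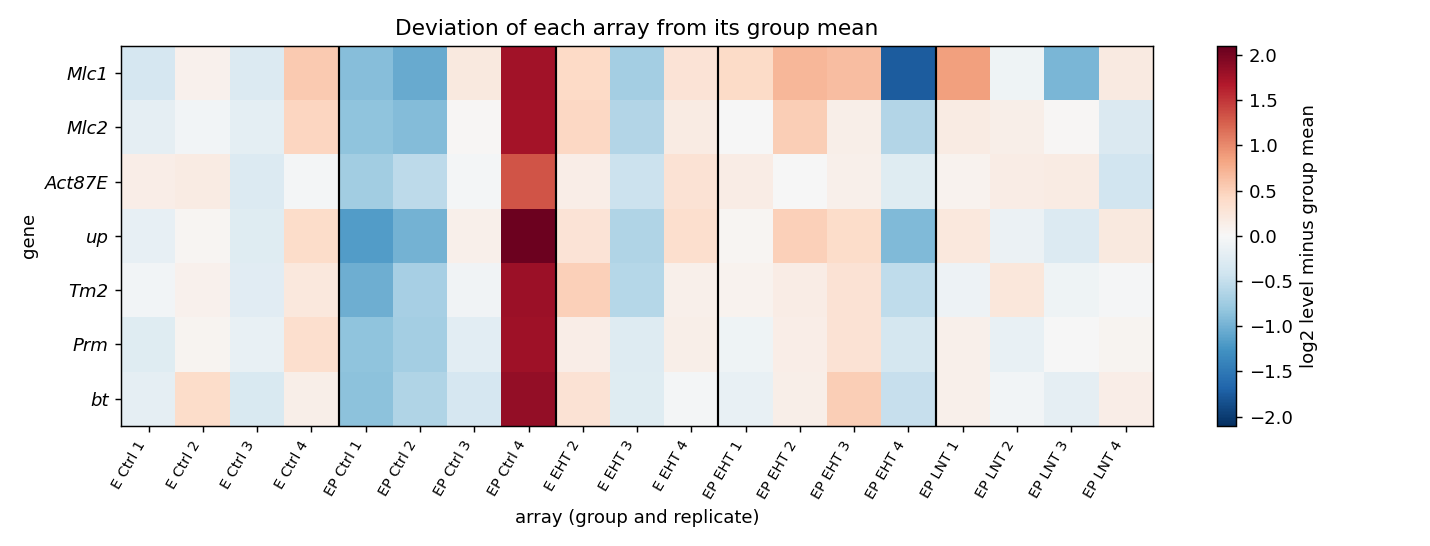
The deviation of each array from its group mean on the log2 scale for the 7 filament genes (rows) on 19 arrays (columns, separated by group), with red above and blue below the mean. EP_Ctrl replicate 4 is high, and EP_EHT replicate 4 and E_EHT replicate 3 are low, in all 7 rows.

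Over the 21 pairs of filament genes, Pearson's r between deviations from the group means lay between 0.69 and 0.97 with a median of 0.91, and without EP_Ctrl replicate 4 between 0.46 and 0.92 with a median of 0.78. Over the 19 arrays with the group differences kept in, r ran from 0.17 to 0.96 with a median of 0.74. Each pair comes from the same arrays and RNA, so these are descriptions.

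The results at day 11 were also computed without the array that stood highest. Without EP_Ctrl replicate 4, 3 genes still fell in EP_LNT against EP_Ctrl: Mlc1 (-2.28, limma, adjusted p = 0.00793), up (-1.23, adjusted p = 0.0219) and Tm2 (-1.03, adjusted p = 0.00877). Act87E then rose by 0.77 (adjusted p = 0.0114), with day 11 at 6.03 to 6.60 and the remaining EP_Ctrl arrays at 5.37, 5.55 and 6.05. Against EP_EHT, up and Tm2 then passed besides Mlc1, with log2 fold changes of -1.33 and -0.89 (adjusted p = 0.02 and 0.0302). In this fit 2414 of 13402 genes passed in either direction in EP_LNT against EP_Ctrl, and 918 against EP_EHT. Between the genotypes at 12 hr, all 7 log2 fold changes turned from above 0 to below 0 without that array, between -0.45 (Mlc1) and -0.06 (Tm2), and none passed in either case.

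The myosin light chains separated at day 11. On the 11 arrays of E_Ctrl, EP_Ctrl and E_EHT, the Mlc1 value minus the Mlc2 value stayed between -0.81 and -0.45, also on EP_Ctrl replicate 4 (-0.62), where both were high. In EP_EHT it was -0.89, -1.12, -0.77 and -2.43, the last on replicate 4. In EP_LNT it was -3.01, -3.92, -4.69 and -3.22, so the day 11 arrays lay below all others. The group means were -0.60 ± 0.14 (SD) in E_Ctrl, -0.63 ± 0.14 in EP_Ctrl, -0.72 ± 0.10 in E_EHT, -1.30 ± 0.76 in EP_EHT and -3.71 ± 0.76 in EP_LNT. The difference between 2 probe sets has no absolute meaning, so only its change between groups is of use. This pair was chosen after its values were seen, and no test was made of it. The separation was not particular to the pair. Over the arrays without EP_Ctrl replicate 4, with group differences kept in, Pearson's r of Mlc2 with Act87E was 0.80. With Mlc1 it was 0.04, with Tm2 0.09, with up 0.15, with bt 0.18 and with Prm 0.26.

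**Figure D4:**
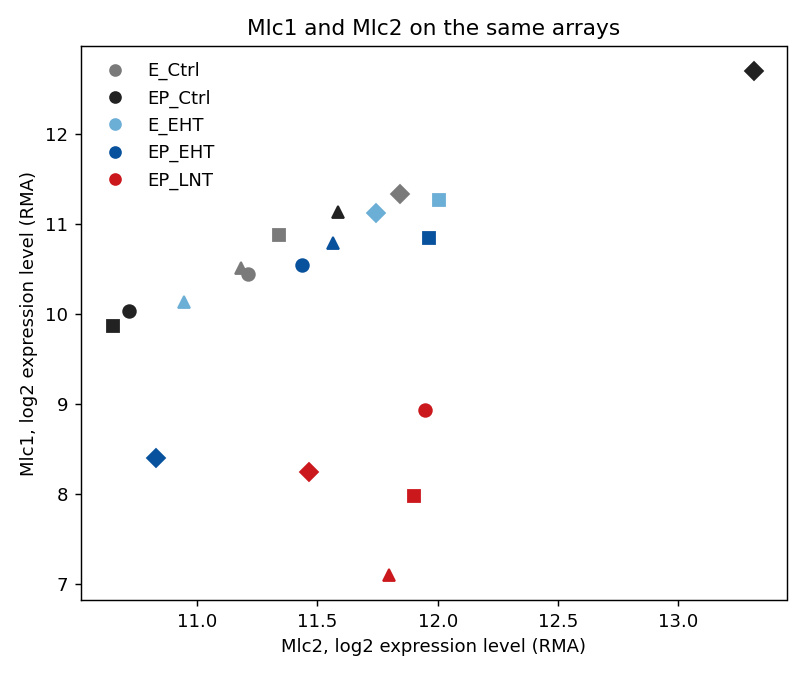
The log2 level (RMA) of Mlc1 against that of Mlc2 on the 19 arrays, coloured by group, with the replicate number as the symbol (circle 1, square 2, triangle 3, diamond 4). The arrays of 12 hr and day 4 lie along 1 line except EP_EHT replicate 4, and the 4 EP_LNT arrays lie below it, with Mlc1 at 7.10 to 8.94 and Mlc2 at 11.47 to 11.95.

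The genes whose levels were most like the mean of the 7 filament genes were found by Pearson's r over the 19 arrays. They were CG5023 (r = 0.96), CG5597 (0.95), the thick filament gene Mf for myofilin (0.95), the calponin-like muscle protein gene Mp20 (0.94) and pncr003:2L (0.94), which encodes small peptides that act on the calcium pump of muscle. Rbp9, CG43897, CG33521, CG9297 and l(3)mbn followed with r from 0.92 to 0.93. Without the 2 arrays farthest from the median (EP_LNT replicate 3 and EP_Ctrl replicate 4), these 10 had r of 0.77 to 0.92 over 17 arrays, and Spearman's rho over 19 arrays was 0.83 to 0.97. When deviations from group means were used, 8 of the 10 were again among the first 10, joined by the junctophilin gene jp (r = 0.94) and CG8630 (0.92), in place of Rbp9 and l(3)mbn. The genes were picked as the highest of all, so no test applies to their r.

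Further sarcomere and Z-disc genes did not move as 1 group. The list held 27 symbols, with unc-45 under more than 1 spelling, and 20 genes were measured. From 12 hr to day 11 with psqRNAi 5 fell, 5 rose and 10 did not pass, with a median log2 fold change of 0.03. Over all genes 10% fell and 12.1% rose in this comparison. The falls were led by TpnC73F, a troponin C gene (-2.80 ± 0.60, SE, limma, adjusted p = 0.0027), and Mf (-2.33 ± 0.61, adjusted p = 0.0104), followed by Zasp66 (-1.18 ± 0.30), Mlp84B (-1.13 ± 0.22) and tmod (-0.28 ± 0.08). The rises were smaller: sls, which encodes titin-like proteins of the Z-disc, rose by 0.63 ± 0.14 (adjusted p = 0.00274), Lmpt by 0.43, Zasp52 by 0.43, Strn-Mlck by 0.32 and unc-45 by 0.17. From day 4 to day 11, Lmpt and Strn-Mlck rose by 0.30 and 0.27 (adjusted p = 0.0192 and 0.0411) and no gene of the list fell, where 4.49% of all genes rose and 2.5% fell. From 12 hr to day 4 with EGFR alone, unc-45, a myosin chaperone gene, fell by 0.22 (adjusted p = 0.0348), and none of the list passed in the other 4 comparisons. With 1 array left out, 4 to 6 rose and 4 to 6 fell from 12 hr to day 11, and without EP_Ctrl replicate 4 Mf, Mlp84B, TpnC73F and Zasp66 still fell. From day 4 to day 11 the counts were less stable, with 0 to 4 up and 0 to 1 down, 4 and 1 of them without EP_EHT replicate 4.

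TpnC73F and Mf showed the same arrays high and low as the filament genes. TpnC73F stood at 12.09 on EP_Ctrl replicate 4, against 8.98, 9.38 and 10.70 on the other EP_Ctrl arrays, and at 7.29 on EP_EHT replicate 4, against 9.28 to 9.58. Its EP_LNT arrays stood at 7.61, 7.03, 7.22 and 8.10. The flight muscle genes fln, TpnC4 and Act88F, which are used in adult fibres, averaged 3.99 to 4.16, 3.94 to 4.09 and 4.81 to 5.35 per group and passed in none of the 7 comparisons, although Act88F reached 6.60 on EP_LNT replicate 2.

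The list for the muscle membrane, calcium handling and energy supply held 21 symbols, some of them synonyms of the same gene. Of its genes 17 were measured, and 4 of them passed from 12 hr to day 11 with psqRNAi (23.5%), close to the 22.1% of all genes. From 12 hr to day 11 with psqRNAi the arginine kinase gene Argk1 fell by 0.83 ± 0.17 (SE, limma, adjusted p = 0.00222), the calcium pump gene SERCA by 0.68 ± 0.10 (adjusted p = 6.99e-05) and Amph by 0.46 ± 0.08 (adjusted p = 0.000607). The calcium channel subunit gene Ca-beta rose by 0.27 ± 0.09 (adjusted p = 0.0372). SERCA also fell from day 4 to day 11, by 0.36 ± 0.10 (adjusted p = 0.0305), and Argk1 from 12 hr to day 4 with psqRNAi, by 0.63 ± 0.17 (adjusted p = 0.0463). Unlike in the filament genes, EP_EHT replicate 4 was not low for SERCA (10.70, against a mean of 10.38 on the other 3). With 1 array left out, 3 to 4 of the list fell and 0 to 1 rose from 12 hr to day 11, and 0 to 2 fell from day 4 to day 11, SERCA losing its call without EP_EHT replicate 1, 3 or 4 or EP_LNT replicate 1, 2 or 3.

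Of 19 listed genes of disc myoblasts and their fusion 15 were measured, and from 12 hr to day 11 with psqRNAi 8 rose and none fell, where 12.1% of all genes rose. The largest rises were those of E(spl)m6-BFM (1.70 ± 0.14, SE, limma, adjusted p = 3.97e-07), the fibroblast growth factor receptor gene htl (1.33 ± 0.15, adjusted p = 6.95e-06), twi, the transcription factor gene that marks muscle precursors (1.03 ± 0.09, adjusted p = 8.67e-07), and Him, which encodes an inhibitor of muscle differentiation (0.97 ± 0.13, adjusted p = 3.94e-05). twi stood at 11.02 ± 0.22 (SD) in EP_LNT, 10.53 ± 0.05 in EP_EHT and 9.99 ± 0.07 in EP_Ctrl. From day 4 to day 11, 5 of the 15 rose, against 4.49% of all genes, and from 12 hr to day 4 with psqRNAi 3 rose, against 2.95%. With 1 array left out, 6 to 9 rose from 12 hr to day 11 and 3 to 6 from day 4 to day 11, with 3 without EP_LNT replicate 2. The only non-muscle counterpart measured, the myosin light chain gene Mlc-c, rose by 0.19 ± 0.05 from 12 hr to day 11 (adjusted p = 0.00773), and of the 4 tendon genes Tsp rose by 1.31 ± 0.15 (adjusted p = 1.24e-05).

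Markers of other tissues that a dissected disc can hold were read in the same comparison, in which 10% of all genes fell and 12.1% rose. From 12 hr to day 11 with psqRNAi, 4 of 4 measured fat body genes and 3 of 11 salivary gland genes fell, and 8 of 12 haemocyte genes rose. With 1 array left out the salivary gland count was 1 to 4, with 1 without EP_Ctrl replicate 2 or 3 or EP_LNT replicate 1 or 2. The haemocyte count was 4 to 12, with 4 without EP_Ctrl replicate 4 or EP_LNT replicate 1 and 5 without EP_LNT replicate 2 or 3. The fat body list averaged 10.02 to 10.42 on the EP_LNT arrays and 11.91 to 12.77 on the EP_Ctrl arrays, and the salivary gland list 6.85 to 8.05 and 7.88 to 11.47. The haemocyte list averaged 9.54 to 9.60 on 3 EP_LNT arrays, 8.24 on EP_LNT replicate 4 and 7.90 to 8.36 on the EP_Ctrl arrays. Of the 21 wing disc genes 10 fell and 4 rose, of 8 tracheal genes 4 fell and 2 rose, and of 9 neuron and glia genes 1 rose. On EP_LNT replicate 4, the array low in roX1 and roX2, the filament genes were neither the highest nor the lowest as a whole, being highest for 1 and lowest for 2 of the 7. The part of these tissues, and of the sex of the larvae, in the filament results was not tested.

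**Figure D5:**
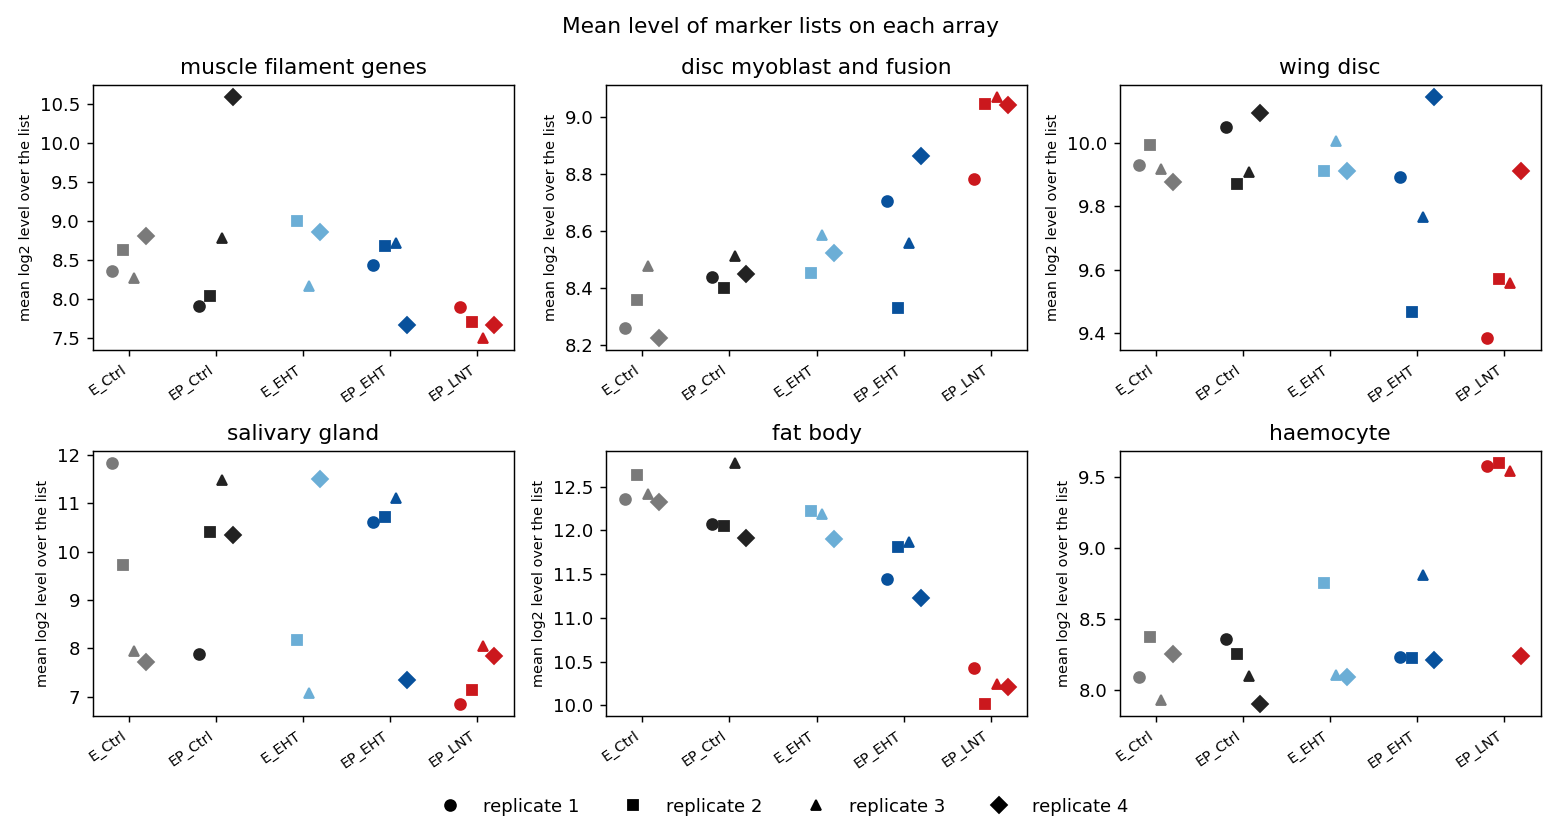
The mean log2 level of 6 gene lists on each array, by group, with the replicate number as the symbol. The filament genes peak on EP_Ctrl replicate 4 (10.59) and lie at 7.51 to 7.90 in EP_LNT, where the myoblast list lies at 8.78 to 9.07 and the fat body list at 10.02 to 10.42.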

How the data were processed

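Biotin-labelled RNA was hybridised to Affymetrix arrays, 1 per sample, per the labels' protocols. The authors deposited log2 expression levels, for which the submitters' processing notes list RMA and limma but no versions. No source used here says whether E_EHT replicate 1 was normalized with the other arrays. RMA makes the arrays' distributions nearly equal and compresses differences between dim probe sets. Arrays have no read depth, and their number limits the precision.

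Of 16322 probe sets, 13441 had 1 gene symbol, 555 several and 2326 none in the annotation used here. Where a gene had several single-symbol probe sets, that with the highest mean over 19 arrays was used, which left 13402 genes. One linear model with a mean per group was fitted to 19 arrays (limma 3.58.1, R 4.3.3, 14 residual and 2.63 prior degrees of freedom), with two-sided p-values adjusted by Benjamini-Hochberg over all genes and a threshold of 0.05. The code was tested on simulated data.

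The filament genes and all gene lists were chosen with earlier results of these data known. Named were the 7 filament genes, psq and Egfr, up to 4 genes per further list by the size of change with those that spell out small counts or a single array chosen after their values were seen, and the 10 genes most like the filament mean by either measure. Alternatives were E_EHT replicate 1 kept, quantile normalization again, median centring, dim genes removed (mean under the 25th percentile), array weights, a trended and robust variance, a fit on only the groups compared, the mean of all probe sets, replicate number as a block, and each array left out. Leaving out both replicate 4 arrays of EP_Ctrl and EP_EHT was added after seeing the data. Same-numbered arrays did not deviate together: over all genes, r of their deviations lay between -0.40 and 0.37, so the numbers were not taken as pairs.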

Additional observations from a re-analysis of the deposited data

Results flagged for a closer look

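Among 28 combinations of a filament gene and a group of 4 arrays, 1 array stood apart from the other 3 by more than Dixon's 95% critical value. It was EP_EHT replicate 4 for Mlc1, at 8.40, against 10.55 for the nearest and 10.85 for the farthest of the others, a gap of 0.877 of the group's range. Chance alone gives about 1 such array in 20 groups, and 1 in 28 is not more than that. The genes share the 4 arrays of each group, so the 28 combinations are not independent.

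E_EHT replicate 1 entered no comparison outside the alternative that kept it. On this array up stood at 9.47 and bt at 8.17, above every E_Ctrl array (highest 9.08 and 7.96). The other 5 filament genes lay below the highest E_Ctrl array there, and Act87E, at 5.70, lay below the 3 E_EHT arrays that were used (5.93 to 6.68).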

How the results depend on the processing

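In EP_LNT against EP_Ctrl, the fall of Mlc1 passed in 29 of 29 alternatives, and those of up and Tm2 in 28 each, all but the fit on only the groups compared (adjusted p = 0.0723 and 0.0698), which called 1 filament gene in place of 3. Leaving out 1 array gave 3 to 5: Prm and bt also passed without EP_Ctrl replicate 1, Prm without EP_Ctrl replicate 2 and Act87E, as a rise, without EP_Ctrl replicate 4. With both replicate 4 arrays of EP_Ctrl and EP_EHT out, 5 passed, of which Mlc1, up and Tm2 fell and Act87E and Mlc2 rose (0.77 and 0.79, adjusted p = 0.011 and 0.0478). Over all genes 2643 of 13402 passed in that setting. In EP_LNT against EP_EHT the count was 0 with E_EHT replicate 1 kept, with trended robust variance and with the replicate block. It was 4 with both replicate 4 arrays out, where 978 of 13402 genes passed. Leaving out 1 array gave 0 to 3. The count was 0 without any 1 of E_Ctrl replicates 1 to 4, EP_Ctrl replicate 3, E_EHT replicates 2 to 4, EP_EHT replicates 1 to 3 or EP_LNT replicates 2 to 4, and 3 without EP_Ctrl replicate 4. On only the groups compared, Tm2 passed in place of Mlc1. Causes were not tested. In the other 5 comparisons 0 filament genes passed in all alternatives.

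Signs changed in differences that had not passed. With both replicate 4 arrays out, EP_Ctrl against E_Ctrl gave -0.45 (Mlc1), -0.41 (Mlc2), -0.34 (Act87E), -0.31 (up), -0.057 (Tm2), -0.068 (Prm) and -0.30 (bt). EP_EHT against EP_Ctrl gave 0.38 (Mlc1), 0.67 (Mlc2), 0.41 (up), 0.036 (Tm2), 0.10 (Prm) and 0.31 (bt), and EP_EHT against E_EHT gave 0.091 (Mlc2) and 0.11 (Prm). The difference between genotypes in the change to day 4 gave 0.33 (Mlc1), 0.50 (Mlc2), 0.26 (Act87E), 0.23 (up), 0.014 (Tm2) and 0.17 (Prm). Array weights gave -0.071 (Mlc1), -0.023 (Mlc2) and -0.082 (Act87E) for EP_Ctrl against E_Ctrl, 0.11 (Prm) for EP_EHT against E_EHT, -0.088 (Mlc1) and -0.086 (Tm2) for E_EHT against E_Ctrl, 0.082 (Mlc2) for EP_EHT against EP_Ctrl, and 0.017 (Mlc2) and 0.047 (Act87E) for the difference between genotypes. Act87E was at 0.0092 in EP_EHT against E_EHT with E_EHT replicate 1 kept. Prm in EP_EHT against E_EHT and Tm2 in E_EHT against E_Ctrl were at 0.0012 and -0.011 with median centring, and at 0.074 and -0.072 with the replicate block, which changed no other sign, and no call besides that of Mlc1 in EP_LNT against EP_EHT (adjusted p = 0.0764).

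With 1 array left out, EP_Ctrl against E_Ctrl spanned -0.45 to 0.50 (Mlc1), -0.41 to 0.48 (Mlc2), -0.34 to 0.34 (Act87E), -0.31 to 0.77 (up), -0.057 to 0.88 (Tm2), -0.068 to 0.81 (Prm) and -0.30 to 0.61 (bt). EP_EHT against E_EHT spanned -0.43 to 0.10 (Mlc2), -0.52 to 0.032 (Tm2) and -0.15 to 0.11 (Prm), and E_EHT against E_Ctrl -0.16 to 0.40 (Mlc1), -0.051 to 0.48 (Mlc2), -0.23 to 0.32 (Tm2) and -0.16 to 0.063 (Prm). EP_EHT against EP_Ctrl spanned -0.42 to 0.47 (Mlc2), -0.12 to 0.56 (Act87E), -0.98 to 0.10 (up) and -0.76 to 0.15 (bt), and EP_LNT against EP_Ctrl -0.10 to 0.79 (Mlc2). The difference between genotypes spanned -0.60 to 0.30 (Mlc2), -0.50 to 0.18 (Act87E) and -0.83 to 0.051 (Prm).

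Counts over all genes moved too. Array weights called 873 in place of 325 (EP_Ctrl against E_Ctrl), 804 in place of 425 (EP_EHT against E_EHT), 2238 in place of 882 (E_EHT against E_Ctrl), 1773 in place of 937 (EP_LNT against EP_EHT) and 139 in place of 0 (the difference between genotypes). Only the groups compared gave 64 in place of 425, 267 in place of 633 (EP_EHT against EP_Ctrl), 252 in place of 937 and 2 in place of 0. Keeping E_EHT replicate 1 gave 206 in place of 325, 605 in place of 937 and 1 in place of 0, and quantile normalization 1 in place of 0. Both replicate 4 arrays out gave 1088 in place of 425. Leaving out 1 array gave 153 to 512 (EP_Ctrl against E_Ctrl), 179 to 1134 (EP_EHT against E_EHT), 273 to 1188 (E_EHT against E_Ctrl), 307 to 855 (EP_EHT against EP_Ctrl), 539 to 1510 (EP_LNT against EP_EHT), 2350 to 3363 (EP_LNT against EP_Ctrl) and 0 to 345 (the difference between genotypes). Few arrays per group limit every value, and dim probe sets have no detection calls here.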
